A study of Mus musculus with 6 samples.

Results

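The 10 genes described here encode proteases, receptors, enzymes and a transcription factor of mast cells and basophils. They are Cpa3, Mcpt8, Gzmb, Fcer1a, Fcer1g, Hdc, Il1rl1, Cd200r3, Akr1c18 and Mitf, were chosen by symbol, and all 10 were among the 12161 genes of the deposited table. The table holds mRNA sequencing of mouse LSK cells, a sorted marrow fraction without lineage markers but with Sca1 and Kit on its surface, which contains the blood stem cells and early progenitors. The 3 MIG-Hhex libraries came from cells given a GFP retrovirus that carries Hhex, a homeobox transcription factor, and the 3 MIG libraries from cells given the same vector without it. The cells of both groups came from C57BL/6 mice and spent 2 days in medium with 10 ng/mL of IL-3 and of IL-6 and 50 ng/mL of stem cell factor and of Flt3 ligand before GFP-positive cells were sorted for RNA. The genotype label reads Hhex for the MIG-Hhex libraries and wild-type for the MIG libraries. The virus was given to LSK cells as a whole, so a change can lie in any cell type that grew in the culture. The labels do not name the age of the mice or say whether animals were pooled. Each replicate name (WT3, WT691, WT703) occurs once per group.

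Mast cells and basophils are granulocytes of allergy and parasite defence. Both arise in bone marrow from progenitors that respond to IL-3 and stem cell factor. Both carry the high-affinity IgE receptor, store histamine in granules, and load those granules with proteases. In the mouse, Mcpt8 marks basophils, carboxypeptidase A3 (Cpa3) is found in mast cells, basophils and their progenitors, and chymases and tryptases mark mature mast cells.

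Cells with added Hhex had lower levels of the granule proteases Cpa3 and Mcpt8, the surface receptor Cd200r3 and the reductase Akr1c18, and higher levels of the histamine-forming enzyme Hdc and the IL-33 receptor Il1rl1. The other 4 genes, Gzmb, Fcer1a, Fcer1g and Mitf, did not pass the test. The 2 rises and 4 falls compare with 18% of all 12161 genes called in either direction, 9.44% higher and 8.52% lower (limma with a flow cell term, Benjamini-Hochberg adjusted p under 0.05). In these 6 genes the MIG-Hhex and MIG libraries also did not overlap, which held for 21.2% of all genes, 10.2% higher and 11% lower. All levels are the authors' log2 values, and each fold change is the MIG-Hhex value minus the MIG value on that scale. The median of the 10 fold changes was −0.69, against −0.02 over all genes. Of the 10 genes, 2 were higher and 6 lower in each of the 3 pairs of libraries that share a replicate name, and 2 were mixed. The share of all genes that keep the same direction in the 3 pairs was not determined, so this count has no background. In these bulk samples, fewer cells of a type and less RNA per cell cannot be told apart.

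**Figure D1:**
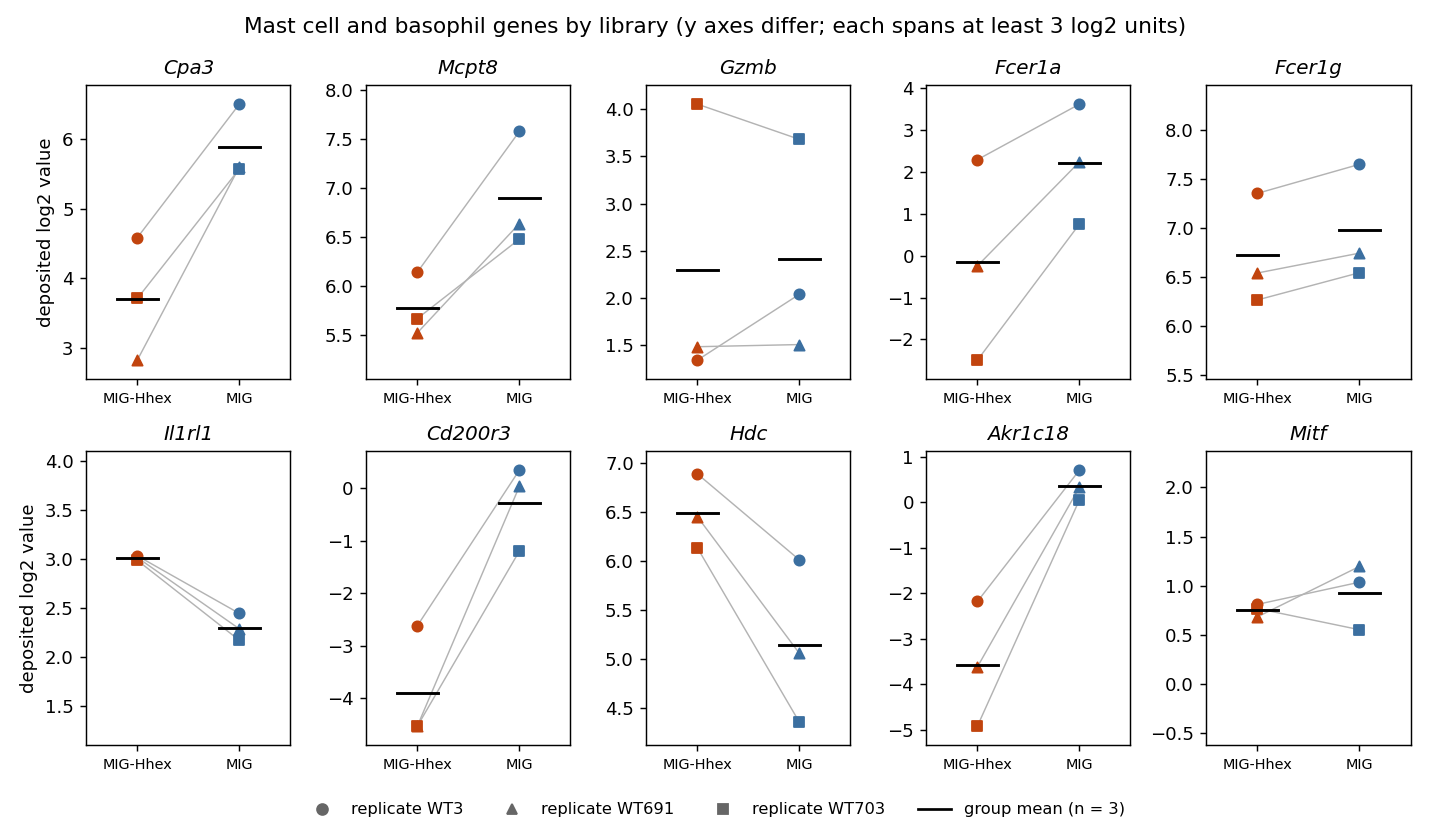
Deposited log2 value of each of the 10 genes (y axis, its range differing by panel) in the MIG-Hhex libraries and the MIG libraries (x axis). Symbols mark the replicates, grey lines join libraries of 1 replicate name and bars are group means (n = 3). The groups do not overlap for Cpa3, Mcpt8, Cd200r3 and Akr1c18, which were lower with MIG-Hhex, or for Hdc and Il1rl1, which were higher.

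Hhex averaged 8.67 ± 0.93 with MIG-Hhex and 5.12 ± 0.07 with MIG (SD, n = 3 each). By the labels, the WT3 libraries were run on flow cell C3RJFACXX and the other 4 on flow cell C5LWPANXX. Of the defining LSK markers, Kit averaged 4.56 ± 0.19 with MIG-Hhex and 4.73 ± 0.12 with MIG, and Ly6a, which encodes Sca1, 5.22 ± 1.45 with MIG-Hhex and 5.17 ± 1.73 with MIG (SD, n = 3 each). Ly6a was lower in both WT3 libraries than in the other 4. The neutrophil gene S100a8 was abundant in both groups, at 10.80 ± 0.20 with MIG-Hhex and 10.31 ± 0.38 with MIG (SD, n = 3 each). The LSK sort was made before the culture.

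The sequence upstream of 4 of the genes is shown because mast cell and basophil genes are classic targets of the GATA factors, and these 4 moved in opposite directions. They are the genes past the threshold whose windows held a match to the letters marked below. That each line shown holds a match therefore follows from the choice of genes. Cpa3 and Cd200r3 fell, and Hdc and Il1rl1 rose. Each line gives the 250 bases before a start in RefSeq's promoter table for GRCm38.p6, 5′ to 3′ on the gene's own strand. RefSeq's full span of each of these genes reaches further upstream than the start used, and the windows cover 0 bases of the gene's GENCODE exons. Capitals mark matches on either strand to AGATAA or AGATAG, or to TGATAA or TGATAG, letters that GATA factors are known to bind. The windows are chr3:20242182-20242431, minus strand, for Cpa3, chr16:44943428-44943677, plus strand, for Cd200r3, chr2:126618679-126618928, minus strand, for Hdc, and chr1:40429320-40429569, plus strand, for the more upstream of 2 tabled starts of Il1rl1.
Cpa3: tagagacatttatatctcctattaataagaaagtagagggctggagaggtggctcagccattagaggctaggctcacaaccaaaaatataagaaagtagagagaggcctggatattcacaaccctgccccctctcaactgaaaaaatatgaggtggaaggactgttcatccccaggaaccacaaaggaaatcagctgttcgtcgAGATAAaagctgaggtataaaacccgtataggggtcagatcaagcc
Cd200r3: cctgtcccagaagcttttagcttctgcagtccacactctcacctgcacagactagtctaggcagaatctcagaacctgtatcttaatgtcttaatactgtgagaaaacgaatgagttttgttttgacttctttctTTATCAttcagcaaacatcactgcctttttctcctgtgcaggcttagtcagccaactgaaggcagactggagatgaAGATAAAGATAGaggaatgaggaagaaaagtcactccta
Hdc: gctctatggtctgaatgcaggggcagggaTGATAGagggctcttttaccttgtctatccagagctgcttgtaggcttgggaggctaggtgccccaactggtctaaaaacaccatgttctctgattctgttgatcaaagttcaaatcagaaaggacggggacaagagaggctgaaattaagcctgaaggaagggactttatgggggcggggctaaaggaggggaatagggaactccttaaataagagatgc
Il1rl1: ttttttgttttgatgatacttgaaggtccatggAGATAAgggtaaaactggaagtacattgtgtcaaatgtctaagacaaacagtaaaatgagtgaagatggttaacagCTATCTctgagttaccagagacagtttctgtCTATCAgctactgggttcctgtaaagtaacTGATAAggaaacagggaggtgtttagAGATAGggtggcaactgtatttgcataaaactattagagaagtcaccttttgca
The Il1rl1 window held 5 matches, the Cd200r3 window 3, and the Cpa3 and Hdc windows 1 each. The Cpa3 match starts 46 bases before its start and the Hdc match 221 bases before its own. Over all members, 8 of 13 promoter windows held a match, as did 26.5% of the 32851 windows in the RefSeq table. Il1rl1 and Mitf have more than 1 window each, and by gene 6 of the 10 members held a match. The windows of Mcpt8, Akr1c18, Gzmb and Fcer1g held none. ATTAA, a core that homeodomain factors bind, was in 6 of the 13 windows, from 5 members, and in 24.9% of all windows. CATGTG or CACGTG, E-boxes that Mitf binds, were in 1 of the 13, that of Fcer1a, and in 17.6% of all. All motifs were searched on both strands. Genes with GATA matches were among those that fell and those that rose.

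Cpa3 (Entrez ID 12873, chr3:20215616-20242209), a zinc carboxypeptidase stored in granules, was at 4.59, 2.83 and 3.71 with MIG-Hhex and at 6.51, 5.60 and 5.58 with MIG, in the order WT3, WT691 and WT703 used throughout. Every MIG-Hhex library lay below every MIG library. The fall was 4.55-fold (log2 −2.19, SE 0.22, limma adjusted p = 0.0024), with −1.92, −2.78 and −1.86 in the 3 pairs. Among all genes of its library, Cpa3 stood at the 67.3, 37.8 and 52.2 percentile with MIG-Hhex and at the 90.2, 83.4 and 82.4 percentile with MIG.

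Mcpt8 (Entrez ID 17231, chr14:56082163-56085499), the basophil serine protease, was at 6.14, 5.52 and 5.67 with MIG-Hhex and at 7.57, 6.63 and 6.48 with MIG. The groups did not overlap, and the fall was 2.17-fold (log2 −1.12, SE 0.11, limma adjusted p = 0.00236). Mcpt8 was still an abundant message in the MIG-Hhex libraries, at the 87.7, 82.1 and 83.7 percentile, against 96.2, 92.8 and 91.3 in the MIG libraries. Cpa3 minus Mcpt8 within a library, on the log2 scale per unit of gene length, was −1.55, −2.70 and −1.95 with MIG-Hhex and −1.07, −1.03 and −0.90 with MIG. Cpa3 was thus further below Mcpt8 in each MIG-Hhex library than in the MIG libraries.

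Gzmb (Entrez ID 14939, chr14:56258836-56262334), granzyme B, is a serine protease of cytotoxic lymphocytes that mouse mast cells and basophils also make. It was at 1.34, 1.49 and 4.05 with MIG-Hhex and at 2.04, 1.51 and 3.68 with MIG. Both WT703 libraries stood above the other 4, and the groups overlapped. The log2 fold change was −0.12 (SE 0.78, limma adjusted p = 0.932), with −0.70, −0.02 and 0.37 in the 3 pairs. Of 12 listed T and NK cell markers 3 were measured, Prf1, Nkg7 and Lck. The listed Cd3 genes had no entry under their symbols among the 12161 genes. Prf1, perforin, was below 0 in all 6 libraries and rose by 2.47 (SE 0.64, limma adjusted p = 0.0429). On log2(value + 1) of the linear values this was 0.39 (limma adjusted p = 0.0658). The call was also lost without the mean-variance trend (limma adjusted p = 0.0693) and without any 1 of the libraries other than MIG-Hhex WT691 (limma adjusted p up to 0.165). The other markers were lower in all 3 pairs. Nkg7, a granule membrane protein and by far the most abundant of the 3, was at 6.82, 5.15 and 5.78 with MIG-Hhex and at 7.18, 5.96 and 6.47 with MIG (fold change −0.62, limma adjusted p = 0.078, and 0.00653 with the replicate block), and the kinase Lck had a fold change of −0.22 with limma adjusted p = 0.381. The summed linear level of the 3 markers was 38.9 to 117 with MIG-Hhex and 66.1 to 149 with MIG. Their part in the Gzmb values was not tested.

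Of 14 listed granule proteases, 5 were measured, and only Cpa3 and Mcpt8 passed the test, or 40% called against 18% of all genes. Prss34, another basophil protease, was at 5.07, 3.47 and 2.50 with MIG-Hhex and at 5.10, 3.86 and 2.89 with MIG (fold change −0.27, SE 0.32, limma adjusted p = 0.59). Its levels differed more between replicates than within pairs. Ctsg, cathepsin G, which neutrophil precursors also store, averaged 10.00 ± 0.83 with MIG-Hhex and 10.42 ± 0.49 with MIG (SD, n = 3 each; fold change −0.42, limma adjusted p = 0.114). The listed chymases and tryptases of mature mast cells had no entry under their symbols among the 12161 genes.

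**Figure D2:**
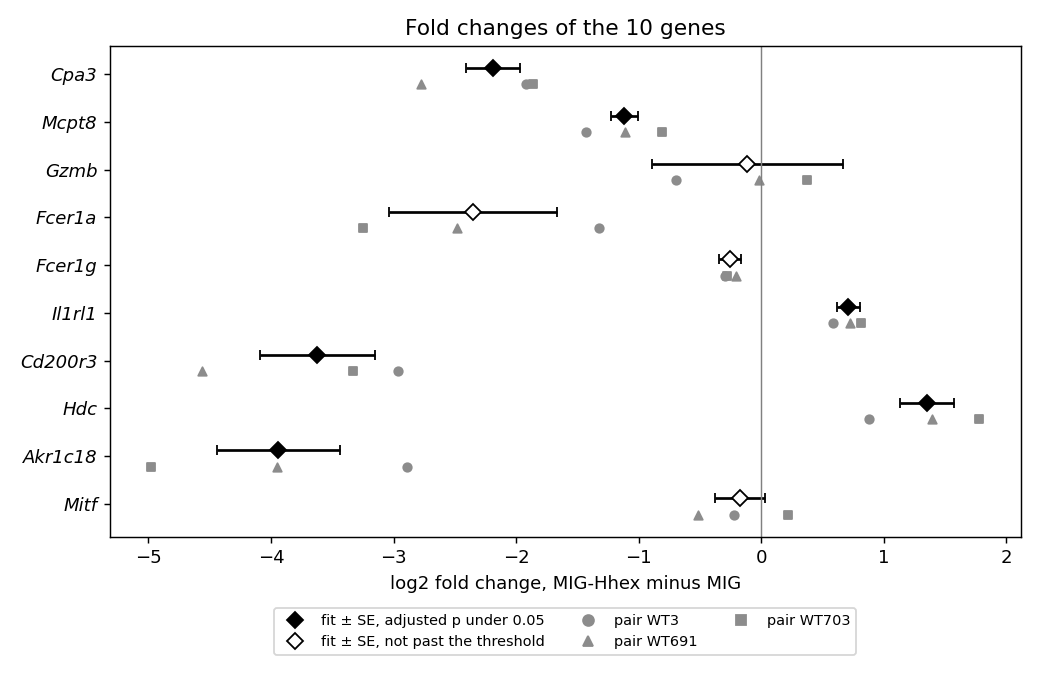
Log2 fold change, MIG-Hhex minus MIG (x axis), of the 10 genes (rows). Diamonds are the limma estimates with their SE, filled where the adjusted p is under 0.05, and grey symbols are the 3 pairs of libraries. Akr1c18 and Cd200r3 lie furthest to the left at −3.94 and −3.62, and Hdc furthest to the right at 1.35.

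The IgE receptor is built of an alpha chain that binds IgE (Fcer1a), a beta chain that amplifies the signal (Ms4a2), and a pair of gamma chains that start it (Fcer1g). Fcer1a (Entrez ID 14125, chr1:173221269-173227232) was at 2.29, −0.24 and −2.49 with MIG-Hhex and at 3.62, 2.24 and 0.76 with MIG. Each MIG-Hhex library lay below the MIG library of the same replicate, but the replicates differed so much that the groups overlapped. The fold change was −2.35 (SE 0.68, limma adjusted p = 0.0597). With the replicate name as a block the same estimate passed the threshold (limma adjusted p = 0.00734). On log2(value + 1) of the linear values the fold change was −1.33 and passed as well (limma adjusted p = 0.0293). Of 14 alternatives only these 2 called Fcer1a. It missed the threshold in every run that left out 1 library (limma adjusted p up to 0.121) and without the mean-variance trend (limma adjusted p = 0.127).

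Fcer1g (Entrez ID 14127, chr1:171229572-171234349) was at 7.35, 6.54 and 6.26 with MIG-Hhex and at 7.65, 6.74 and 6.54 with MIG. The gamma chain also serves IgG receptors of other myeloid cells, and it had the highest mean of the 10 genes in both groups. Its fold change was −0.26 (SE 0.09, limma adjusted p = 0.0951, and 0.0125 with the replicate block), with −0.30, −0.20 and −0.28 in the 3 pairs. Of 14 alternatives only the replicate block called Fcer1g.

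Ms4a2, the beta chain, was at 4.41, 2.95 and 2.44 with MIG-Hhex and at 4.99, 4.81 and 4.55 with MIG. The groups did not overlap, and it fell 2.87-fold (log2 −1.52, SE 0.30, limma adjusted p = 0.0183). Within a library, Ms4a2 minus Fcer1g per unit of gene length was −2.94, −3.59 and −3.83 with MIG-Hhex and −2.65, −1.93 and −1.99 with MIG. The beta chain stood further below the gamma chain in each of the MIG-Hhex libraries than in the MIG libraries. Fcer1a minus Fcer1g was −5.06, −6.78 and −8.76 with MIG-Hhex and −4.03, −4.50 and −5.79 with MIG, and here the groups overlapped.

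All 19 listed genes of the receptor and its signalling were measured. Of these 3 rose, 3 fell and 13 missed the threshold, or 31.6% called against 18% of all genes, and with the replicate block 4 rose and 5 fell, where 24.5% of all genes were called. The list's median was 0.02. The kinase Syk, which docks on the gamma chain, rose by 0.69 (SE 0.10, limma adjusted p = 0.00781), the phospholipase Plcg2 by 0.30 and the phosphatase Ptpn6 by 0.35. Beside Ms4a2, the adaptors Gab2 and Grap2 fell, by 0.40 and 2.00. Grap2 was below 0 in all 6 libraries, and on log2(value + 1) of the linear values its fold change was −0.37 and not called (limma adjusted p = 0.0527). For the kinase Lyn it was −0.15 (limma adjusted p = 0.3). Ms4a2 and Ptpn6 missed the threshold without MIG-Hhex WT691 or MIG WT703, Grap2 without any 1 of the 4 libraries of WT691 and WT703, and Gab2 without any 1 of the 6 (limma adjusted p up to 0.0719, 0.0773, 0.118 and 0.102). Without the mean-variance trend Ms4a2 and Ptpn6 missed it too (limma adjusted p = 0.0586 and 0.0617).

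**Figure D3:**
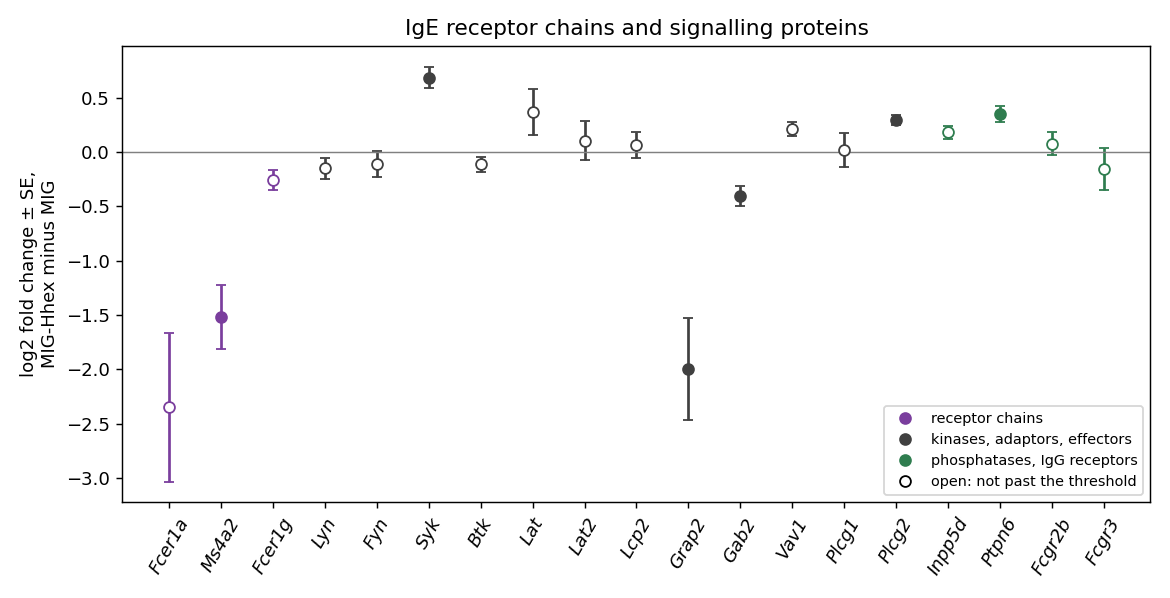
Log2 fold change with its SE, MIG-Hhex minus MIG (y axis), of the 19 genes of the IgE receptor and its signalling (x axis). Filled points have an adjusted p under 0.05. The receptor chains lie at −2.35 for Fcer1a, −1.52 for Ms4a2 and −0.26 for Fcer1g, and Syk stands at 0.69.

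Il1rl1 (Entrez ID 17082, chr1:40404864-40465418) encodes ST2, the receptor through which the alarmin IL-33 acts on mast cells, basophils and some lymphocytes. It was at 3.03, 3.02 and 2.99 with MIG-Hhex and at 2.45, 2.29 and 2.17 with MIG. The MIG-Hhex libraries were nearly equal, and all lay above the MIG libraries. The rise was 1.64-fold (log2 0.71, SE 0.09, limma adjusted p = 0.00528). For its co-receptor Il1rap the fold change was −0.35 (SE 0.14, limma adjusted p = 0.122).

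Of 11 listed cytokine receptors 10 were measured. Of these 5 rose and the rest missed the threshold, or 50% called against 18% of all genes, for a median of 0.38. Beside Il1rl1, the IL-18 receptor chains Il18r1 and Il18rap rose by 1.08 (SE 0.21, limma adjusted p = 0.0177) and 0.49 (SE 0.07, limma adjusted p = 0.00862). On log2(value + 1) of the linear values the rise of Il18r1 was 0.69. These genes follow each other on chromosome 1 in GRCm38.p6. Il1rl1 ends at 40465418 and Il18r1 starts at 40465552, and whether reads passing the end of Il1rl1 were counted in Il18r1 was not tested. Csf2rb, the common beta chain of the IL-3, IL-5 and GM-CSF receptors, rose by 0.62 (limma adjusted p = 0.0137), and Csf2rb2, its IL-3-specific copy in the mouse, by 1.23 (limma adjusted p = 0.0085). The copies are nearly identical and may share reads, so their separate values are uncertain. The fold change of Il3ra, the alpha chain, was 0.18 (limma adjusted p = 0.496), and that of Kit, the receptor for stem cell factor, −0.17 (limma adjusted p = 0.265). Il18r1 missed the threshold without any 1 of the 4 libraries of WT691 and WT703, and Csf2rb without either WT3 library or without MIG-Hhex WT691 (limma adjusted p up to 0.0767 and 0.065).

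Cd200r3 (Entrez ID 74603, chr16:44943596-45058365), an activating receptor of the CD200 receptor family on mouse mast cells and basophils, was at −2.62, −4.53 and −4.53 with MIG-Hhex and at 0.34, 0.03 and −1.20 with MIG. All MIG-Hhex libraries lay below the MIG libraries. The fall was 12.3-fold (log2 −3.62, SE 0.47, limma adjusted p = 0.00523). Such low values depend on the unknown offset of the log scale, and on log2(value + 1) of the linear values the fold change was −0.79 (limma adjusted p = 0.0144). In its library Cd200r3 stood at the 2.31, 0.37 and 0.386 percentile with MIG-Hhex and at the 14.8, 12.4 and 6.17 percentile with MIG.

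The other measured receptors of the family fell too, the inhibitory Cd200r1 by 1.30 (SE 0.13, limma adjusted p = 0.00236) and Cd200r4 by 1.47 (SE 0.26, limma adjusted p = 0.0137). Cd200r1 was at 1.36, 1.24 and 1.42 with MIG-Hhex and at 2.78, 2.70 and 2.43 with MIG. On log2(value + 1) of the linear values the fold change of Cd200r4 was −0.85. The 3 genes lie together on chromosome 16, where Cd200r1 starts at 44765736 and Cd200r3 ends at 45058365, and whether reads were shared among these related genes was not tested. Of 14 listed genes of the family and other surface proteins 7 were measured. Of these 2 rose and 4 fell, or 85.7% called against 18% of all genes. The rises were those of Itgb7, an integrin chain of mast cell progenitors, by 1.73 (SE 0.07, limma adjusted p = 0.000397), and of Cd63, a granule membrane tetraspanin, by 0.38. Ptger3, a prostaglandin E receptor, fell by 0.36. Cd200r4 and Ptger3 missed the threshold without either WT3 library, without MIG-Hhex WT691 or without MIG WT703 (limma adjusted p up to 0.0624 and 0.0649).

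Hdc (Entrez ID 15186, chr2:126593659-126624025), histidine decarboxylase, makes histamine and is also transcribed in immature myeloid cells of the mouse. It was at 6.89, 6.45 and 6.13 with MIG-Hhex and at 6.01, 5.06 and 4.36 with MIG. Every MIG-Hhex library lay above every MIG library, and the rise was 2.55-fold (log2 1.35, SE 0.22, limma adjusted p = 0.0113). In its library Hdc stood at the 93.2, 91.6 and 88.9 percentile with MIG-Hhex and at the 86, 75.8 and 63.4 percentile with MIG. Hdc minus Cpa3 within a library, per unit of gene length, was 2.30, 3.63 and 2.42 with MIG-Hhex and −0.50, −0.54 and −1.22 with MIG. Hdc therefore stood above Cpa3 in all MIG-Hhex libraries and below it in all MIG libraries. The same held against Mcpt8, with differences of 0.75, 0.93 and 0.47 with MIG-Hhex and −1.56, −1.58 and −2.12 with MIG.

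Akr1c18 (Entrez ID 105349, chr13:4132615-4150646) is an aldo-keto reductase that inactivates progesterone, and in the mouse its activity appears in marrow cells answering IL-3. It was at −2.18, −3.62 and −4.92 with MIG-Hhex and at 0.71, 0.33 and 0.05 with MIG. The groups did not overlap, and the fall was 15.3-fold (log2 −3.94, SE 0.50, limma adjusted p = 0.00517). On log2(value + 1) of the linear values the fold change was −1.05 (limma adjusted p = 0.00124). Akr1c18 and Cd200r3 had the lowest means of the 10 genes in both groups, and their fold changes on the 2 scales differ several-fold in size.

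Of 16 listed genes of mediator synthesis, storage and cytokines 12 were measured. Of these 6 rose, 2 fell and 4 missed the threshold, or 66.7% called against 18% of all genes, for a median of 0.36. Ptgs1, the constitutive cyclooxygenase, rose 3.6-fold (log2 1.85, SE 0.14, limma adjusted p = 0.00121) and Alox5, which starts leukotriene synthesis, 2.01-fold (log2 1.01, SE 0.12, limma adjusted p = 0.00388). Alox5ap, the partner of Alox5, rose by 0.31, Srgn, the proteoglycan of granules, by 0.41, and Slc18a2, which pumps histamine and serotonin into vesicles, by 0.44. Beside Akr1c18, the cytokine Il6 fell by 2.81 (SE 0.27, limma adjusted p = 0.00228), to −2.07, −2.46 and −1.73 with MIG-Hhex, against 0.81, 0.67 and 0.67 with MIG. On log2(value + 1) of the linear values that fold change was −1.09. Alox5ap missed the threshold without either WT3 library, MIG-Hhex WT691 or MIG WT703, Srgn without these or without MIG-Hhex WT703, and Slc18a2 without any 1 of the 4 libraries of WT691 and WT703 (limma adjusted p up to 0.0951, 0.0908 and 0.143). Without the mean-variance trend Alox5ap and Slc18a2 missed it too (limma adjusted p = 0.0623 and 0.0855).

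**Figure D4:**
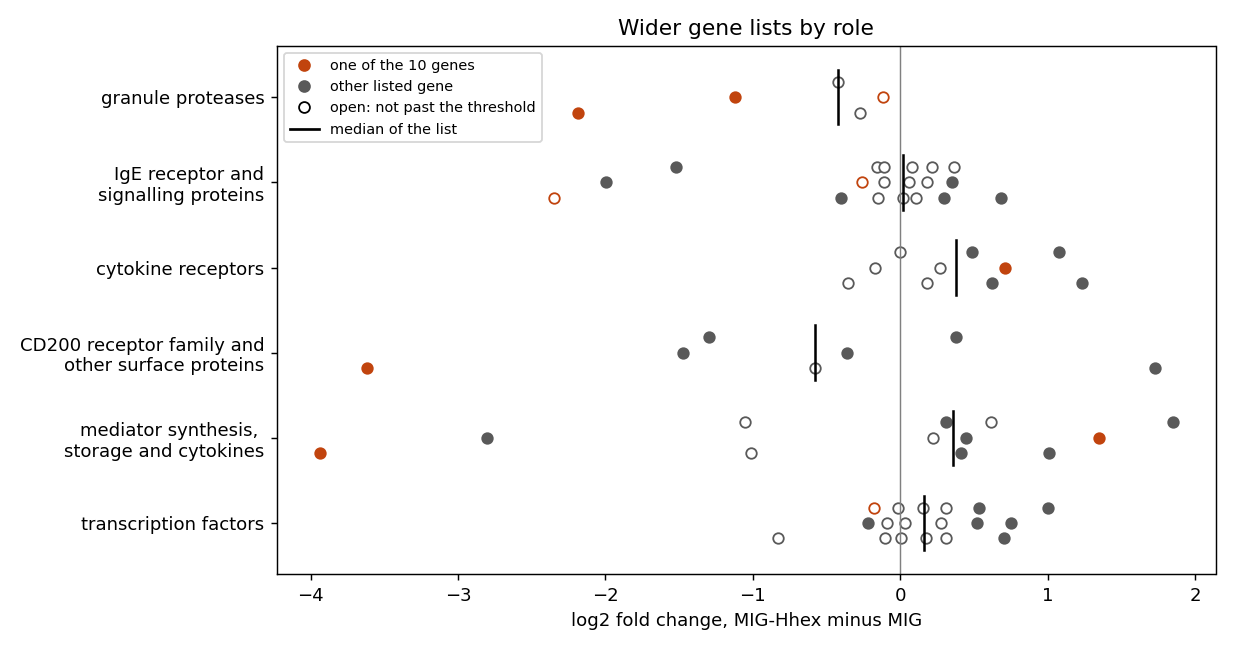
Log2 fold change, MIG-Hhex minus MIG (x axis), of the measured genes of 6 lists by role (rows). Orange points are the 10 genes, open points did not pass the threshold and vertical bars are list medians. The granule protease with the highest fold change is Gzmb at −0.12, while the median of the cytokine receptors is 0.38.

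Mitf (Entrez ID 17342, chr6:97807002-98021360), the basic helix-loop-helix factor that mast cells require, was at 0.81, 0.68 and 0.77 with MIG-Hhex and at 1.03, 1.20 and 0.55 with MIG. The groups overlapped, and the fold change was −0.17 (SE 0.20, limma adjusted p = 0.581), with −0.23, −0.51 and 0.22 in the 3 pairs. It stood low in all 6 libraries, at the 17.9, 16.4 and 17 percentile with MIG-Hhex and at the 19.9, 20.6 and 15.9 percentile with MIG. RefSeq gives Mitf 3 starts, which gene-level values do not separate.

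All 18 listed transcription factors were measured; 5 rose, 1 fell and 12 missed the threshold, or 33.3% called against 18% of all genes, for a median of 0.16. With the replicate block 6 rose and 2 fell, Spi1 (fold change 0.28) and Tfec being added, against 24.5% of all genes called. Zfpm1, the GATA cofactor FOG1, known to restrain mast cell fate in the mouse, rose 2.01-fold (limma adjusted p = 0.00314). Gata1 rose by 0.71 (SE 0.12, limma adjusted p = 0.0141), Runx1 by 0.75, Cebpa, which favours basophil over mast cell fate in mouse progenitors, by 0.54, and Tfeb, a relative of Mitf, by 0.52. Gata2, which mast cells and basophils require, was at 5.51, 5.46 and 5.42 with MIG-Hhex and at 5.55, 4.98 and 4.93 with MIG (fold change 0.31, SE 0.11, limma adjusted p = 0.0935). Without either WT3 library its fold change was 0.48 and passed (limma adjusted p = 0.0164 without MIG WT3). These runs repeat the estimate of flow cell C5LWPANXX alone, and in no other alternative did Gata2 pass. For Tfec, another relative of Mitf, the fold change was −0.83 (limma adjusted p = 0.0741, and 0.0139 with the replicate block). Stat5b, which relays IL-3 signals, fell by 0.22. Gata1 missed the threshold without MIG-Hhex WT691 or MIG WT703, and Stat5b without any 1 of the 6 libraries (limma adjusted p up to 0.0627 and 0.133). Stat5b missed it without the mean-variance trend as well (limma adjusted p = 0.0692).

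By mean level per unit of gene length, the order with MIG-Hhex was Fcer1g (6.72 ± 0.56), Hdc (6.49 ± 0.38), Mcpt8 (5.78 ± 0.32), Cpa3 (3.71 ± 0.88), Il1rl1 (3.01 ± 0.02), Gzmb (2.29 ± 1.52), Mitf (0.75 ± 0.06), Fcer1a (−0.15 ± 2.39), Akr1c18 (−3.58 ± 1.37) and Cd200r3 (−3.90 ± 1.10) (SD, n = 3 each). With MIG it was Fcer1g (6.98 ± 0.59), Mcpt8 (6.89 ± 0.59), Cpa3 (5.90 ± 0.53), Hdc (5.14 ± 0.83), Gzmb (2.41 ± 1.13), Il1rl1 (2.30 ± 0.14), Fcer1a (2.20 ± 1.43), Mitf (0.93 ± 0.34), Akr1c18 (0.36 ± 0.33) and Cd200r3 (−0.28 ± 0.82) (SD, n = 3 each). Several neighbours in these orders differed by less than the larger of their SDs. With MIG-Hhex these were Fcer1g and Hdc, Cpa3 and Il1rl1, Il1rl1 and Gzmb, Mitf and Fcer1a, and Akr1c18 and Cd200r3. With MIG they were Fcer1g and Mcpt8, Cpa3 and Hdc, Gzmb and Il1rl1, Il1rl1 and Fcer1a, Fcer1a and Mitf, and Akr1c18 and Cd200r3. Hdc ranked above Mcpt8 and Cpa3 with MIG-Hhex and below both with MIG.

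The gene whose levels were most like those of Cpa3 over the 6 libraries, among 2379 genes with an SD of at least 0.5, was Mras, a Ras-type GTPase (Pearson r = 0.996). Matn2 (r = 0.995), Tgif1 (r = 0.993), Lmo4 (r = 0.993) and Frmd7 (r = 0.992) followed. For Mcpt8 they were Spsb4 (r = 0.984), Unc119 (r = 0.982), Purg (r = 0.981), Bphl (r = 0.979) and Nfia (r = 0.979). For Mitf they were Hist2h2bb (r = 0.91), Chrnb2 (r = 0.874), Raet1d (r = 0.866), Ang (r = 0.852) and Hist1h1e (r = 0.844). These are descriptions over 6 libraries that share the vector groups and flow cells.

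Summed levels of marker lists overlapped between the groups while single markers moved apart. Such sums follow the most abundant genes of a list and do not measure the number of cells. The mast cell and basophil lists include some of the 10 genes, and in each list 4 measured markers are not among them. Of 12 mast cell markers 8 were measured, with Hdc and Slc18a2 up and Cpa3 and Ms4a2 down, or 50% called against 18% of all genes. The summed linear level of the 8 was 175 to 250 with MIG-Hhex and 164 to 284 with MIG. Of 10 basophil markers 9 were measured, with Hdc up and Mcpt8, Cd200r3, Ms4a2 and Akr1c18 down, or 55.6% called against 18% of all genes. The sum was 183 to 310 with MIG-Hhex and 181 to 398 with MIG. Of 9 measured eosinophil markers 2 rose, Alox15 and the lectin Siglecf, or 22.2% called against 18% of all genes, and the sum was 63.7 to 123 with MIG-Hhex and 8.53 to 87.3 with MIG. The median fold change of the list was 1.67. With the replicate block 3 rose and 1 fell. The added rise was that of Ear2 (fold change 1.37, limma adjusted p = 0.11, and 0.0499 with the block). The fall was that of Prg3, a granule protein (fold change −0.99, limma adjusted p = 0.144, and 0.0331 with the block). Ear6, an eosinophil ribonuclease, had a fold change of −0.79 and missed the threshold in both fits. Prg2, Ear1 and Il5ra had fold changes of 1.86, 1.67 and 0.89 and also missed it in both. Of the measured markers, only Prg3 and Ear6 had negative fold changes. Epx, the eosinophil peroxidase, was at 4.32, 4.03 and 3.13 with MIG-Hhex and at 3.58, 3.23 and −0.79 with MIG. Its fold change was 1.82 and missed the threshold (limma adjusted p = 0.239).

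Of 10 measured neutrophil markers 6 rose and 1, Mpo, fell, or 70% called against 18% of all genes. The sum was 5474 to 7465 with MIG-Hhex and 6140 to 7675 with MIG. The 10 monocyte, macrophage and dendritic cell markers gave 4 rises and 3 falls, also 70% called, with a sum of 288 to 864 with MIG-Hhex and 334 to 792 with MIG. The 12 megakaryocyte and erythroid markers gave 4 rises and 2 falls, or 50% called, with a sum of 98.5 to 138 with MIG-Hhex and 74.9 to 159 with MIG. Of 10 stem and progenitor markers Meis1 alone was called, with a fold change of −0.79. This is 10% of the list, below the 18% of all genes. The sum was 208 to 343 with MIG-Hhex and 240 to 364 with MIG. The part of these cell types in the values of the 10 genes was not tested.

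The calls depend on taking out differences between flow cells or replicates. With neither the flow cell term nor the replicate block, 0 of the 10 genes passed (limma adjusted p between 0.0528 and 0.189 for the 6 called above), while 2 higher and 4 lower had an unadjusted p under 0.05. With the replicate block in place of the flow cell term, all 6 passed (limma adjusted p between 0.00146 and 0.0046). Within flow cell C5LWPANXX alone the same 6 genes were called. Flow cell C3RJFACXX holds a single pair, in which all 6 moved in the directions given.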

How the data were processed

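The deposited table gives 1 log2 expression value per gene and library. Per the submitters' processing notes, the authors used Subread, featureCounts, limma and edgeR with build mm10; versions, steps and normalization are not stated. Deposited log2 values lay between −7.65 and 13.0, with library medians between 3.56 and 3.60. Adding log2 of the GENCODE exon length (11700 genes matched by symbol) narrowed the mean range between sorted libraries to 0.0438, against 0.12 log2 units as deposited, so the values appear to be per unit of gene length. Read depth is unknown, so precision rests on the 3 libraries per group. Whether RNA per cell changed as a whole cannot be seen in such values.

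Each gene was fitted with flow cell and vector terms in limma 3.58.1 (R 4.3.3), with eBayes, a mean-variance trend and 3 residual degrees of freedom. Two-sided p-values were adjusted across the 12161 genes (Benjamini-Hochberg, threshold 0.05). No gene was filtered out. The code was tested on simulated data. Groups came from the vector label. Alternatives left out the flow cell term or single libraries, added the replicate block, or changed the scale, filter, scaling or trend. The members and lists were chosen with earlier results of these data known. Of each list, up to 6 called members (smallest p first) and up to 4 defining ones were named by rule. Il1rap, Tfec, Spi1, Lck, Prg2, Prg3, Ear1, Ear2, Ear6, Il5ra and Gzmc were named after their values were seen. Likeness took the 5 highest r for Cpa3, Mcpt8 and Mitf. Libraries were paired by replicate name. Their deviations from group means correlated at 0.742, 0.585 and 0.656 for WT3, WT691 and WT703. The flow cell difference was not removed and no libraries of unlike names were compared, so these values cannot separate pairing from the flow cell. Positions and promoters are RefSeq's (GRCm38.p6, the build of mm10); 12052 genes matched by Entrez ID, and all 10 members had a promoter.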

Additional observations from a re-analysis of the deposited data

How the results depend on the processing

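Cpa3, Mcpt8, Cd200r3, Akr1c18, Hdc and Il1rl1 kept their direction and passed the threshold in each of 6 runs that left out 1 library and within flow cell C5LWPANXX. Leaving out either WT3 library lets the flow cell term absorb the other. These runs therefore repeat the estimate of flow cell C5LWPANXX alone (Cpa3 −2.32). All 6 genes also passed with the replicate block, quantile normalization, median centring, log2(value + 1) or no mean-variance trend. Library medians spanned only 3.56 to 3.60, and sorted libraries differed by 0.12 log2 units on average. Median centring and quantile normalization could therefore change little. The filter on a mean of at least 0 removed Cd200r3 and Akr1c18, which left 2 members lower. Without the flow cell term 0 members were higher and 0 lower (limma; 2 and 4 at an unadjusted p under 0.05), with 119 genes higher and 98 lower over the whole table, against 1148 and 1036 with it. With the replicate block 2 members were higher and 6 lower, Fcer1a and Fcer1g being added, while over all genes 1506 were higher and 1473 lower, 24.5% called against 18%. Within flow cell C5LWPANXX 698 genes were higher and 519 lower, and without the trend 791 were higher and 638 lower. Leaving out 1 library gave 452 to 835 higher and 357 to 634 lower genes, with fewer samples in each fit. Uncalled genes changed sign: Gzmb was 0.17 within flow cell C5LWPANXX and −0.93 to 0.53 with 1 library left out, Mitf −0.37 to 0.0022 and Prss34 −0.51 to 0.0379. The cause was not tested. Unknown depth and offset limit values below 0.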

Other observations

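Mcpt8 and Gzmb lie in the granzyme and chymase cluster on mouse chromosome 14, 173 kb apart in GRCm38.p6, and 4 of its 15 listed genes were measured. Gzmc, a granzyme of lymphocytes next to Gzmb, was at −2.36, −0.69 and 1.11 with MIG-Hhex and at −1.51, −3.29 and −0.37 with MIG (fold change 1.08, SE 0.97, limma adjusted p = 0.472). In both groups Gzmc was highest in replicate WT703, as was Gzmb. Ctsg, between Mcpt8 and Gzmc, had the highest mean of the 4 in both groups. Only Mcpt8 of the 4 passed the test, or 25% against 18% of all genes. Whether its change differs from that of its neighbours was not tested. Cd200r3 had equal deposited values in the MIG-Hhex libraries of WT691 and WT703, and such ties also occurred in other genes, such as Ctsg in both WT3 libraries and Il6 in the MIG libraries of WT691 and WT703.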
